A study of Homo sapiens with 18 samples.

Results

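The m1A immunoprecipitation (IP) of vector-carrying WPMY-1 cells was compared with the input RNA of the same cells. The members are all tRNA adenosines listed in the deposited site table, read in 3 IP libraries that were not treated with AlkB and in 3 input libraries, out of 18 libraries in the series. The table lists 725 sites in 180 tRNA genes with 45 anticodons, and 6 of its lines repeat another line and were counted once, which left 719 sites. WPMY-1 is an immortalised human prostate stromal myofibroblast line. All 6 libraries come from cells labelled TRMT61A wildtype that carry the vector, with no shRNA against TRMT61A. Per the labels' protocols, small RNA was enriched from total RNA and bound by an antibody against N1-methyladenosine (m1A). The bound RNA was then eluted and sequenced without the demethylase AlkB, so that its m1A was kept. IP and input libraries were paired by the number in their labels. The labels leave unsaid whether the numbers stand for separate cultures, and the tests may therefore see only technical spread. No mRNA was available to check the cell type or the level of TRMT61A.

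m1A carries a methyl group on the base-pairing face of adenosine, so reverse transcriptase tends to stop beside it or to insert a wrong base. In cytosolic tRNAs, m1A is formed at position 58 of the T loop by the TRMT6/TRMT61A complex, and it helps to hold the folded tRNA together. A cDNA is copied from the 3′ end of the tRNA. A read that starts at the 3′ end and ends near position 58 therefore covers little more than the acceptor strand, and a read of the 5′ part comes from a longer copy or from a 5′ fragment.

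The tRNAs on which the comparison turns are shown as the deposited table gives them (hg38, 5′ to 3′ on the sense strand, introns included), with positions 54 to 60 of the T loop, counted from the 3′ end, in capitals. Position 58, the fifth capital, is A in each of them. The 9 genes were chosen as members of the 9 anticodons whose share of reads differed between IP and input, and each has a RefSeq tRNA gene at the same place. Higher in the IP were Leu-CAA-4-1 (chr1:248873855-248873960), Leu-CAG-1-1 (chr1:161441533-161441615), Thr-CGT-2-1 (chr16:14285893-14285964) and Gly-GCC-1-1 (chr1:161443304-161443374).
Leu-CAA-4-1: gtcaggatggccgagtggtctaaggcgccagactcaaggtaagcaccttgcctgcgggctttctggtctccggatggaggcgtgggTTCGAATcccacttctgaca
Leu-CAG-1-1: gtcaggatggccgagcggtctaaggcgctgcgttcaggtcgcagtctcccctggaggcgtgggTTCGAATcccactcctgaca
Thr-CGT-2-1: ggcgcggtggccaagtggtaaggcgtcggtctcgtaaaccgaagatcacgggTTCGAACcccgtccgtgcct
Gly-GCC-1-1: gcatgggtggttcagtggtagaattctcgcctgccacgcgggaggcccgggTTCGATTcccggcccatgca

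Lower in the IP were Val-AAC-1-1 (chr3:169772230-169772302), Tyr-GTA-2-1 (chr2:27050782-27050870), Glu-TTC-2-1 (chr13:44917927-44917998, minus strand), Lys-TTT-5-1 (chr11:59556429-59556501) and Met-CAT-2-1 (chr16:71426493-71426565).
Val-AAC-1-1: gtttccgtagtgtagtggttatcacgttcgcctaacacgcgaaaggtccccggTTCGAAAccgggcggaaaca
Tyr-GTA-2-1: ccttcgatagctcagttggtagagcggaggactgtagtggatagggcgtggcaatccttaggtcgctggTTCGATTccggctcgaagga
Glu-TTC-2-1: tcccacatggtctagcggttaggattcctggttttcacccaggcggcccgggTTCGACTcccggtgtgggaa
Lys-TTT-5-1: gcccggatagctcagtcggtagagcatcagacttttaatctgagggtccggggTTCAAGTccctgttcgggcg
Met-CAT-2-1: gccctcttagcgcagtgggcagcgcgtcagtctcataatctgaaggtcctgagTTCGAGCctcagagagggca

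The letters TTCGA stand at positions 54 to 58 of Leu-CAA-4-1 and of Val-AAC-1-1 alike. Of the 180 genes, 165 hold TTCNA at these positions on the sense strand (searched there only), among them 125 of the 133 genes tested for read counts and all 31 that passed. Position 57 was G in 83 of those 125 genes, of which 10 rose and 16 fell in the IP. It was A in 42, of which 0 rose and 5 fell.

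Reads summed over sites came to 733176, 831147 and 707773 in IP libraries 1, 2 and 3 and to 307959, 251169 and 279578 in the input libraries. A read is counted at each site it covers, so these sums exceed the number of reads. The highest site count was 8011 in the IP and 5023 in input, and between 29 and 51 sites of an IP library but 0 of an input library reached 7500. The IP counts thus end at a ceiling near 8000. In 12 genes a site reached 7500 in some IP library. These are called near the ceiling, and their IP values may be limited by it. How far the shares would move without the ceiling was not tested beyond leaving those genes out. Sites with at least 20 reads numbered 353 to 476 in the IP and 463 to 487 in the input libraries.

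The IP libraries resembled each other far less than the input libraries did. Over the 43 tested anticodons, log2 shares correlated at 0.61 to 0.72 between IP libraries and at 0.996 to 0.997 between input libraries. IP and input of the same number correlated at 0.52 to 0.54. The median coefficient of variation of an anticodon's share was 86.3% in the IP and 7.57% in input, and it was larger in the IP for 42 of 43 anticodons. Of 67 genes whose highest site had at least 1000 reads in some IP library, 9 had fewer than 20 in another, against 0 of 29 in input. Lys-CTT-2-1, a lysine tRNA, had 196, 1154 and 3 reads at its highest site in the IP and 1359, 1259 and 1273 in input. His-GTG-1-4 had 25, 1583 and 14 in the IP and 1414, 1163 and 1295 in input. Summed over sites, Asp-GTC was read 6, 5 and 9157 times in the IP, and Asn-GTT 6, 2802 and 10 times. Each of these tRNAs was high in some IP libraries and near 0 in another.

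Leucine tRNAs with the anticodons CAA and CAG rose in the IP with the smallest p-values. Leu-CAA made up 12.7%, 8.98% and 12.5% of the listed reads in the IP and 2.94%, 2.17% and 2.24% in input. No IP library came near the input libraries, and the log2 change was 2.21 (SE 0.21, edgeR quasi-likelihood adjusted p = 0.0040). Leu-CAG made up 7.51%, 6.95% and 7.35% in the IP and 1.61%, 1.43% and 1.40% in input, a log2 change of 2.30 (SE 0.27, edgeR adjusted p = 0.0048). Most of its IP reads came from Leu-CAG-1-1, which is near the ceiling (8001 reads at its highest site in IP library 2), so their closeness is no measure of agreement. Leu-CAG-2-1, below the ceiling, had a coefficient of variation of 14.1% in the IP. Of the 5 listed Leu-CAA genes, 4 have the same last 30 bases as a Leu-CAG gene, so reads from this stretch cannot be told apart and the values of both anticodons are not independent. In all, 9 of 43 tested anticodons passed (20.9%), 4 of them higher in the IP (9.3%) and 5 lower (11.6%). 16 had an unadjusted p under 0.05.

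Thr-CGT, a threonine tRNA rarely read in input, had the largest rise. Its 2 genes have only 5 listed sites, 14 to 29 nucleotides before the 3′ end, so no other stretch of this tRNA was seen. It was read 7559, 5276 and 10080 times in the IP, 1.03%, 0.635% and 1.42% of the listed reads, and 25, 37 and 23 times in input, where its share was 0.0104% ± 0.0038 (SD, n = 3). The log2 change was 6.63 (SE 1.35, edgeR adjusted p = 0.0174). Both listed genes rose, Thr-CGT-2-1 by 7.80 and Thr-CGT-4-1 by 5.98 on the log2 scale (edgeR adjusted p = 0.0198 and 0.0296). In IP libraries 2 and 3 nearly all of these reads ended before position 58. At position 59 both genes together had 5915, 5273 and 10076 IP reads, and at position 58 they had 1643, 2 and 4. Reads at position 58 were thus 27.8%, 0.0379% and 0.0397% of those at position 59 in the IP. Input had only 9, 12 and 14 reads at position 59, with 2 at position 58 in each library.

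Gly-GCC, the most abundant anticodon of the IP, made up 21.9%, 20.5% and 22.6% of its reads and 14.2%, 14.7% and 15.1% in input. The log2 change was 0.56 (SE 0.11, edgeR adjusted p = 0.0169), with the IP share limited by the ceiling. At A20 of Gly-GCC-1-1 the IP libraries held 8009, 8002 and 8007 reads, at the ceiling, against 1390, 1180 and 1348 in input. The reads of this gene lay in its 5′ part, since its last base was covered by 10, 21 and 10 reads in the IP and by 17, 19 and 25 in input. With sites 3′ of position 58 alone, Gly-GCC had 42, 7510 and 36 IP reads and a log2 change of -1.34 (edgeR adjusted p = 0.787). Of its 5 listed genes 4 are near the ceiling, and the remaining Gly-GCC-4-1, with 52, 328 and 44 IP reads, gave -0.996 (edgeR adjusted p = 0.730). The rise of Gly-GCC is therefore a rise of reads of its 5′ part, with a log2 change of 0.74 there (edgeR adjusted p = 0.0078). The 5′ part had 160182, 160356 and 160127 IP reads, held at the ceiling. Their closeness, and the small p-values that rest on it, are therefore no measure of agreement between libraries.

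Lys-TTT and elongator Met-CAT, which decode lysine and internal methionine codons, were almost absent from the IP in the stretches that were seen. Lys-TTT was read 17, 13 and 7 times in the IP and 3589, 3716 and 4047 times in input, a log2 change of -9.76 (SE 1.29, edgeR adjusted p = 0.0064). All 5 of its listed genes had at most 10 reads in any IP library, and Lys-TTT-5-1 had 10, 0 and 1 against 1093, 1091 and 1207 in input. Of Lys-TTT only the 5′ part and the middle were seen, since sites 3′ of position 58 had 0, 1 and 1 reads in the IP and likewise 0, 1 and 1 in input. Met-CAT was read 3, 7 and 2 times in the IP and 2291, 2113 and 2343 times in input (log2 change -10.67, SE 1.72, edgeR adjusted p = 0.0130). Each of its 3 genes has only 1 listed site, 29 or 30 nucleotides before the 3′ end, so no other stretch of this tRNA was seen. Met-CAT-2-1 had 1, 1 and 1 reads there in the IP and 932, 903 and 985 in input. The initiator tRNA iMet-CAT went the other way, with 1.07%, 1.46% and 5.61% in the IP and 0.716%, 0.630% and 0.724% in input, but its log2 change of 1.56 did not pass (edgeR adjusted p = 0.158).

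Tyr-GTA made up 2.01%, 0.687% and 4.29% of the IP reads and 12.5%, 10.7% and 11.5% of the input reads (log2 change -2.67, SE 0.53, edgeR adjusted p = 0.0171). Of its 8 listed genes, 6 fell in the IP. Glu-TTC made up 1.09%, 1.08% and 0.307% in the IP and 4.91%, 5.04% and 4.91% in input (log2 change -2.78, SE 0.53, edgeR adjusted p = 0.0169). In the 5′ part it had 6236, 119 and 68 reads in the IP, with library 1 far above the others, and 14838, 12433 and 13503 in input, a log2 change of -6.96 that did not pass there alone (SE 2.06, edgeR adjusted p = 0.122). Glu-TTC-2-1 had 6, 6 and 7 IP reads at A21 against 601, 496 and 645 in input. With sites 3′ of position 58 alone, Glu-TTC had 1750, 8858 and 2102 reads in the IP and 255, 203 and 205 in input, a log2 change of 2.54 that did not pass (edgeR adjusted p = 0.204). The value for this anticodon thus had opposite signs at both ends of the tRNA.

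Val-AAC, the most abundant anticodon in input, made up 7.83%, 12.4% and 6.56% of the IP reads and 18.2%, 19.4% and 18.7% of the input reads (log2 change -1.13, SE 0.20, edgeR adjusted p = 0.0166). Genes of this anticodon came near the ceiling in the IP, as Val-AAC-1-1 did with 7693 reads at its highest site in library 2. Without the genes near the ceiling the change was -1.01 (edgeR adjusted p = 0.541). Val-CAC, of whose 6 listed genes 2 share their first 26 bases with Val-AAC, just missed the threshold (log2 change -0.79, edgeR adjusted p = 0.0518). So did Ala-TGC (1.98, edgeR adjusted p = 0.0518), which had 1.88%, 2.60% and 2.45% in the IP and 0.572%, 0.619% and 0.548% in input. By groups that do not overlap, 11 anticodons were higher (25.6%) and 12 lower (27.9%) in the IP.

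**Figure D1:**
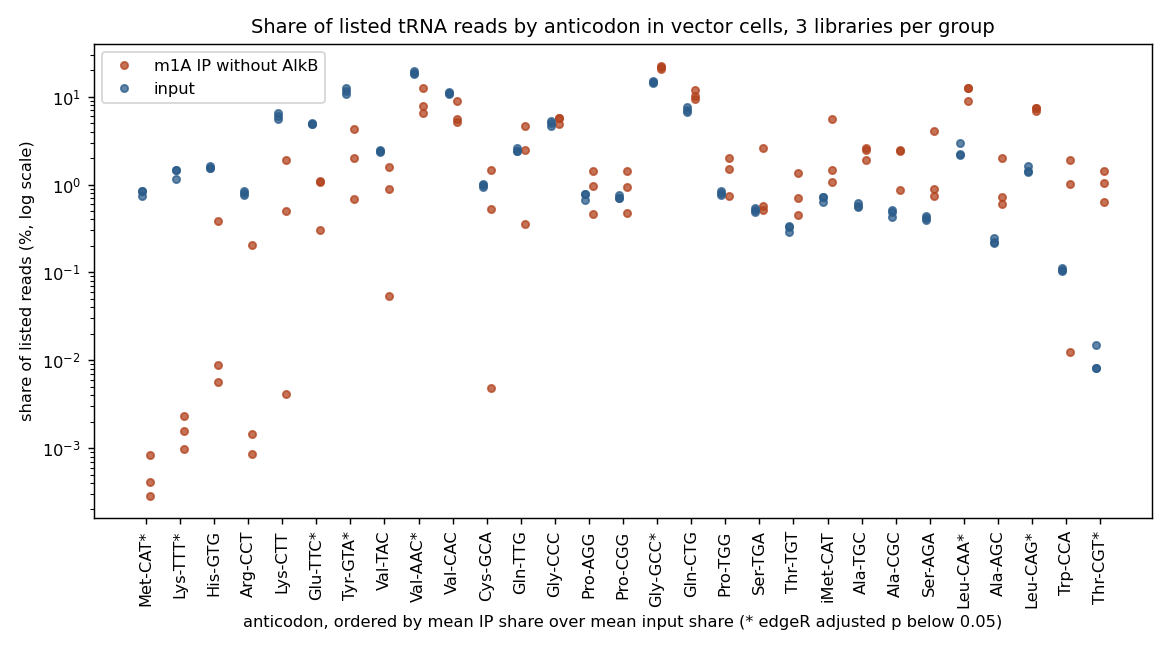
Share of listed reads (percent, log scale) of the 29 anticodons with a mean share of at least 0.5% in IP or input, ordered by mean IP share over mean input share; each point is 1 library, 3 per group, and an asterisk marks an edgeR adjusted p below 0.05. Input points of an anticodon lie close together, while IP points of most anticodons spread widely. The IP points of Gly-GCC (20.5% to 22.6%) are limited by the count ceiling, and so is that of Leu-CAG (6.95% to 7.51%) in library 2.

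Both ends of the tRNA were also tested apart. With sites 3′ of position 58 alone, 9 of 35 anticodons passed (25.7%), 6 higher (17.1%) and 3 lower (8.57%). Leu-CAA (2.25), Leu-CAG (2.19) and Thr-CGT (7.89) rose there as they did over all sites, as log2 changes. For Thr-CGT this value rests on the site at position 59 of each gene alone. iMet-CAT (1.93), Ala-TGC (2.41) and Ala-CGC (2.71) rose there as well (edgeR adjusted p = 0.0136, 0.0136 and 0.0276), although none of these passed over all sites. Tyr-GTA (-2.62), Val-AAC (-1.18) and Val-CAC (-0.83) fell. In the 5′ part alone, 3 of 19 anticodons passed (15.8%). Gly-GCC, held at the ceiling, was higher (5.26%), and Lys-TTT and Tyr-GTA were lower (10.5%). Tyr-GTA was read 0, 1 and 0 times there in the IP and 45, 46 and 42 times in input.

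The 5 largest anticodons of the IP were Gly-GCC, Leu-CAA, Gln-CTG, Val-AAC and Leu-CAG, with 59.7% ± 0.829 of its reads (SD, n = 3) and 44.5% ± 0.174 of the input reads. Those of input were Val-AAC, Gly-GCC, Tyr-GTA, Val-CAC and Gln-CTG, with 63.1% ± 0.345 of its reads and 49.9% ± 3.93 of the IP reads. 3 of the 5 are shared. A share does not separate how much of a tRNA was in the RNA, how much of it was methylated, how well the antibody bound it and how well it was copied, and these cannot be told apart here.

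Of the tested genes, 31 of 133 passed the threshold (23.3%), 10 higher (7.52%) and 21 lower (15.8%). 119 of the 133 had the direction of their anticodon, but an anticodon's reads are the sum over its genes, so this agreement is partly built in. Ala-TGC-3-2, His-GTG-1-4, Arg-TCG-1-1 and Val-CAC-1-7 passed although their anticodons did not. His-GTG-1-4 and Arg-TCG-1-1 are the only listed genes of their anticodons, so the same reads were tested at both levels. Their edgeR adjusted p was 0.0458 and 0.0434 as genes and 0.0688 for both as anticodons, a difference of the fit and not of the reads. By no overlap, 27 genes were higher (20.3%) and 45 lower (33.8%). Among genes past the threshold, and beside the Thr-CGT genes, the largest rises were those of Leu-CAG-2-1 (2.37), Leu-CAA-3-1 (2.36), Ala-TGC-3-2 (2.28), Leu-CAG-1-1 (2.26), Leu-CAA-2-1 (2.25) and Leu-CAA-4-1 (2.21), as log2 changes. The largest falls among them were those of Met-CAT-2-1, -4-1 and -6-1, of Lys-TTT-3-1, -4-1, -5-1 and -6-1 and of Glu-TTC-1-2, each with at most 12 reads in any IP library. Of the tRNAs of leucine and serine, which have a long variable arm, 23 of 29 listed genes were tested, 16 with a higher and 7 with a lower value in the IP. The 6 that rose are all genes of Leu-CAA and Leu-CAG, which share ends, and 0 of 11 serine genes passed. Without overlap, 12 were higher and 0 lower. The lowest was Ser-CGA-4-1, with a log2 value of -4.02 (edgeR adjusted p = 0.411). The median log2 change of the 23 genes was 1.71, against -0.80 over all 133, and 2.15 against 0.30 without the replicate block, where the sign of the overall median turned. IP library 1 stood apart in serine, with Ser-AGA at 4.03%, 0.889% and 0.738% in the IP and 0.442%, 0.413% and 0.391% in input (edgeR adjusted p = 0.177).

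The calls depend on single pairs. Without pair 1, 0 anticodons and 0 genes passed, without pair 2, 10 and 9, and without pair 3, 6 and 0. All 9 anticodons and all 31 genes kept their direction in each of these fits. Without the replicate block, 14 anticodons passed (32.6%), among them the same 9, and 33 genes (24.8%), 13 higher (9.77%) and 20 lower (15%).

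Within the tRNA, reads were shifted towards the T arm. The 260 T-arm sites, 8 to 24 nucleotides before the 3′ end, took 28.9%, 34.7% and 33.7% of the IP reads and 15.1%, 14.5% and 14.6% of the input reads, 2.21 times as much in the mean. The 169 sites of the acceptor 3′ strand took 32.8%, 35.5% and 30.4% in the IP and 45.3%, 43.3% and 43.8% in input. The 61 middle sites took 2.29%, 1.24% and 2.32% in the IP and 3.80%, 4.17% and 4.01% in input. None of these 3 segments overlapped between groups, and each reached p = 0.1 in an exact permutation test (adjusted p = 0.133 over 4 segments), the smallest that 3 against 3 libraries allow. The 229 sites of the 5′ part, up to nucleotide 26, took 36.0%, 28.5% and 33.6% in the IP and 35.8%, 38.0% and 37.6% in input, which overlap (exact permutation p = 0.2).

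Abundant tRNAs weigh most in these sums. With equal weight for each of 75 genes, the T arm held 32.4% ± 3.13 in the IP and 23.9% ± 0.0750 in input (SD, n = 3), without overlap. The acceptor strand then no longer differed beyond its spread, at 39.1% ± 1.19 and 39.6% ± 0.846 (exact permutation p = 0.5). The 5′ part was then lower in the IP without overlap, at 27.2% ± 1.76 against 33.9% ± 0.753 (exact permutation p = 0.1). Without the genes near the ceiling the 5′ part fell by 24.6 percentage points and the T arm gained 29.7, while the acceptor strand changed by -1.07 (exact permutation p = 0.1, 0.1 and 0.5).

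For 66 genes whose highest site had at least 20 reads in every library, reads at each site were taken as a percentage of that site. Sites 0 to 8 nucleotides before the end stood at 83.3% in the IP and 78.4% in input, with overlap. At position 58 itself (58 genes) coverage was 41.6%, 66.9% and 51.3% in the IP and 20.3%, 21.7% and 21.1% in input. A nucleotide further, 16 before the end, it was 27.2%, 56.2% and 34.9% in the IP and 10.1%, 11.8% and 11.2% in input. At 14 nucleotides before the end the IP had 70.0% and input 54.4%, with overlap. These distances rest on different genes, 36 at 14 and 18 at 16. At 17 to 29 before the end (12 genes) the IP was lower, with 12.9% against 26.6% in input, and at 47 to 59 (28 genes) it had 48.1% against 73.6%, both without overlap. The groups overlapped at 30 to 46 (8 genes, 13.1% and 26.1%) and at 60 or more (29 genes, 62.1% and 57.2%).

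**Figure D2:**
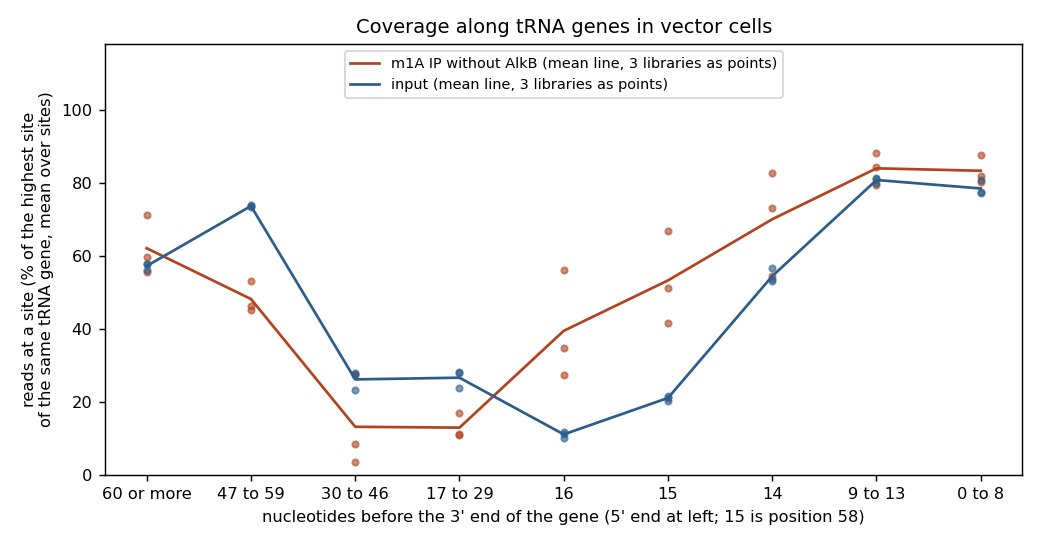
Reads at a site as a percentage of the highest site of its gene, averaged over sites, against the distance from the 3′ end of the gene in nucleotides (5′ end at left); points are libraries and lines join the means of 3. The IP lies above input at 15 and 16 nucleotides before the end (53.2% and 21.05% at 15) and below it from 17 to 29 and from 47 to 59.

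Passage of position 58 was then tested for each tRNA, as reads covering position 58 over the median reads at sites 0 to 8 from the end. It is a ratio of coverage and not a share of the same reads, and it passed 100% in an IP library in 3 genes. Of 66 genes with both kinds of site, 45 had enough reads, and 24 passed, each higher in the IP (53.3%), with 0 lower. Near-identical genes may share reads, so these are not counts of independent genes. Without overlap, 34 were higher (75.6%) and 0 lower. The median over the 45 genes was 36.7%, 85.7% and 85.3% in the IP libraries and 12.6%, 13.5% and 14.02% in the input libraries. Val-AAC-1-1 was the extreme case, with coverage at position 58 of 41.5%, 68.2% and 99.6% of that at the 3′ end in the IP and 0.860%, 1.03% and 0.723% in input. Behind these lay 1769, 5247 and 3104 IP reads and 43, 45 and 34 input reads at position 58. Its log2 change was 6.23 (SE 0.39, limma adjusted p = 0.0050). Val-AAC-4-1 (6.13), Val-CAC-1-7 (5.997) and Tyr-GTA-8-1 (5.41) followed. These valine genes are near the ceiling, and fewer genes passed when the genes near it were left out.

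Passage rose in all 6 leucine genes tested. Of the 5 listed Leu-CAA genes, 4 have the same last 30 bases as a Leu-CAG gene, so these values are not independent. Leu-CAG-1-1 went from 13.6%, 16.7% and 13.2% in input to 89.8%, 99.99% and 99.97% in the IP (log2 change 2.74, SE 0.15, limma adjusted p = 0.0050). In IP library 2 it had 8000 reads over 8001, both at the ceiling, so a difference between them could not show. Of 7 serine genes 6 passed, among them Ser-AGA-2-6 (3.37), Ser-AGA-4-1 (3.06), Ser-AGA-1-1 (3.06) and Ser-TGA-2-1 (2.94). In these serine genes IP library 1 lay far below the others: Ser-AGA-2-6 had 253, 223 and 101 reads at position 58 over 1055, 224 and 101 at its 3′ end in the IP, and 2, 2 and 1 over 54, 32 and 24 in input. In the 5 called serine genes other than Ser-TGA-4-1, position 58 had 1 to 5 reads in each input library, so these log2 changes rest on few input reads. Of 7 proline genes 1 passed, and of 6 tyrosine genes 1.

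Other tRNAs had high coverage at position 58 in input already. The initiator iMet-CAT-1-1 stood at 92.1%, 93.0% and 93.7% in input and 99.7%, 99.9% and 99.99% in the IP (limma adjusted p = 0.505). Tyr-GTA-2-1 showed the opposite limit, with 2.25%, 1.46% and 1.82% in input and only 2.49%, 7.47% and 3.60% in the IP, and it did not pass (limma adjusted p = 0.161). Gln-CTG-2-1 had 6.54%, 6.93% and 89.0% in the IP against 13.7%, 15.8% and 14.97% in input, so 1 library set its mean. No gene passed without pair 2 (lowest limma adjusted p = 0.0522), 19 passed without pair 1 and 18 without pair 3. With no replicate block 27 passed (60%).

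**Figure D3:**
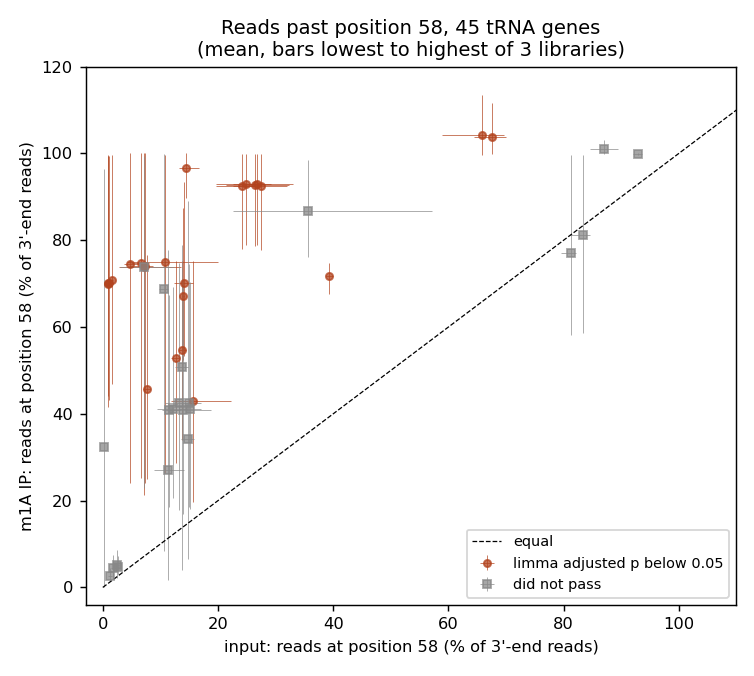
Reads at position 58 as a percentage of 3′-end reads for 45 tRNA genes, IP (vertical) against input (horizontal); points are means and bars run from the lowest to the highest of 3 libraries, and the dashed line marks equal values. Most genes lie above the line, and the vertical bars are long where IP libraries differ, as in Val-AAC-1-1 (41.5% to 99.6%).

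The median reads of the 5′ part over those at position 58 could be tested in 9 of 41 genes, of which 8 passed (88.9%), 7 lower in the IP (77.8%) and 1 higher (11.1%). The reads below the line are those of position 58, which rose in the passage measure, so a lower ratio does not by itself mean fewer 5′ reads. Val-AAC-1-1 (-5.64) had 450, 212.5 and 200 reads in its 5′ part in the IP and 179.5, 170.5 and 182 in input, while its reads at position 58 were 1769, 5247 and 3104 against 43, 45 and 34. Val-AAC-4-1 (-5.48) and Val-CAC-1-7 (-5.31) also had more 5′ reads in the IP than in input, as raw counts. The IP libraries held more listed reads, however. As a share of all 5′-part reads, Val-AAC had 2.74%, 1.46% and 1.22% in the IP and 2.98%, 3.09% and 2.82% in input. This was lower without overlap, as was Val-CAC, but Val-AAC did not pass there (edgeR adjusted p = 0.291) and neither did Val-CAC. Pro-AGG-2-1, a proline tRNA, had 115, 6 and 4 reads in its 5′ part against 583, 332 and 211 at position 58 in the IP. In input it had 213, 177 and 204 against 28, 23 and 30, a log2 change of the ratio of -7.38 (SE 1.05, limma adjusted p = 1.37e-05). All 9 genes had this same SE, because limma gave them a common pooled variance. The SE, the p-values and the calls of this ratio therefore do not measure the spread of each gene. The ratio was also lower in Tyr-GTA-5-4 (-2.94), in Ala-CGC-1-1 (-2.65) and in Ala-TGC-3-2 (-2.48). Tyr-GTA-5-4 had 0 reads in its 5′ part in each IP library, but only 4.5, 8 and 5 in input. Its reads at position 58 were 27, 20 and 23 in the IP and 49, 30 and 36 in input. The log2 change of Tyr-GTA-5-4 therefore rests on few reads and depends on the constant added to the counts. Ser-TGA-4-1 alone rose (3.56).

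Set against the 3′ end in place of position 58, the 5′ share of reads per anticodon in genes covered at both ends was lower in the IP without overlap in 7 of 14 anticodons (50%) and higher in 2 (14.3%). Proline tRNAs lost it almost entirely: Pro-AGG had 6.27%, 1.27% and 0.304% in the IP and 49.6%, 52.9% and 50.1% in input, and Pro-CGG and Pro-TGG were alike. Glu-TTC had 78.0%, 1.04% and 2.09% against 98.1%, 98.1% and 98.2%. Ala-CGC had 27.1% ± 13.7 against 53.9% ± 1.21 (SD, n = 3). Ser-TGA gained, with 75.1%, 60.7% and 78.7% against 34.8%, 41.8% and 42.3%. Val-AAC, with 30.2%, 10.3% and 19.2% against 14.4%, 15.1% and 14.4%, and Val-CAC overlapped between groups. Gly-GCC stayed near the upper end in both, with 99.9%, 90.5% and 99.9% against 99.3%, 99.2% and 99.2%. Exact permutation tests gave at least p = 0.1 throughout.

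**Figure D4:**
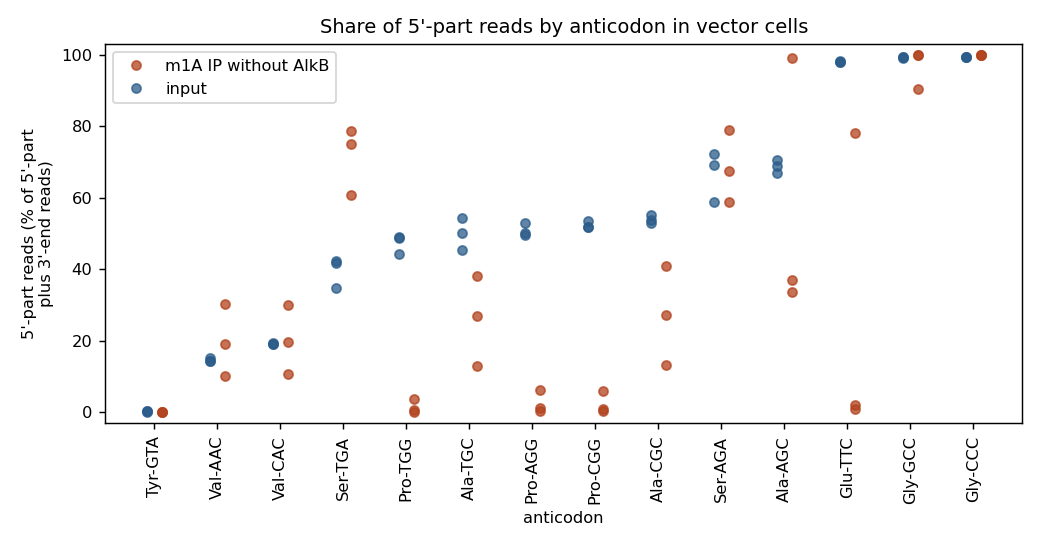
Reads of the 5′ part as a percentage of 5′-part plus 3′-end reads for 14 anticodons with genes covered at both ends; each point is 1 library, 3 per group. The 3 proline anticodons stand at 44.4% to 53.6% in input and at 0.166% to 6.27% in the IP, and glycine anticodons stay near the top in both.

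Mismatch rates, in contrast to coverage, differed little. Of 270 sites with at least 20 reads in every library, 176 could be tested with the quasi-binomial model, and 0 passed (0%; lowest adjusted p = 0.0528). 14 had an unadjusted p under 0.05, 13 lower and 1 higher in the IP. limma on the logit of the rate also called 0 of 270, with 38 at an unadjusted p under 0.05. By no overlap, 7 sites were higher (3.98%) and 29 lower (16.5%). The median over tested sites was 0.306% in the IP and 0.345% in input, and 23 sites in input but 20 in the IP reached 1%.

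Position 58 itself was nearly alike in both. Pooled over 31 sites it had 0.644%, 0.618% and 0.619% in the IP and 0.640%, 0.585% and 0.435% in input (exact permutation p = 0.3). Of 17 position-58 sites tested, 0 had an unadjusted p under 0.05, 8 were lower and 9 higher. The class of position 9, taken by nucleotide number with the neighbour on each side, was low in both but higher in the IP. It had 0.145%, 0.159% and 0.204% in the IP against 0.0591%, 0.103% and 0.0972% in input over 11 sites. The exact permutation p was 0.1 (adjusted p = 0.133 over 4 classes). Position 9 itself carries m1A in some tRNAs. The class of position 14, taken likewise, had 0.275% ± 0.0135 in the IP and 0.380% ± 0.0264 in input over 18 sites (SD, n = 3). The exact permutation p was 0.1, but the median over sites was higher in the IP by 0.186 percentage points.

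The neighbours of position 58 moved in opposite directions. At 14 nucleotides before the 3′ end, position 59, 32 sites pooled had 0.471%, 0.468% and 0.358% in the IP and 0.728%, 0.585% and 0.779% in input. At 16 before the end, position 57, 8 sites had 0.947%, 0.808% and 0.872% in the IP and 0.362%, 0.324% and 0.674% in input. Both sets did not overlap between groups, at the smallest possible exact permutation p of 0.1 (adjusted p = 0.143 over 10 sets chosen after the data were seen). A single case is Leu-CAG-1-1 A69, 14 before the end, with 0.277% ± 0.0978 in the IP and 1.35% ± 0.257 in input (SD, n = 3). Val-AAC-1-1 A60, 13 before the end, had 0.614% ± 0.0959 in the IP and 0.289% ± 0.0953 in input (SD, n = 3).

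7 sites had a mean rate of at least 5%, the same in both groups: A21 of 7 genes of Val-AAC and Val-CAC. Pooled, they had 23.5%, 22.1% and 18.4% in the IP and 40.3%, 37.7% and 39.4% in input, with at least 305 reads at each site in each library. Every IP library lay below every input library. A21 of Val-AAC-1-1 came nearest to the threshold, with 21.4% ± 1.82 in the IP and 39.7% ± 3.28 in input (SD, n = 3, quasi-binomial adjusted p = 0.0528). These genes share their first 26 bases in part, so the 7 sites are not independent. They also set the class of other positions, which had 0.420% in the IP and 0.717% in input over 210 sites, and 0.261% and 0.251% without them (exact permutation p = 0.7).

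**Figure D5:**
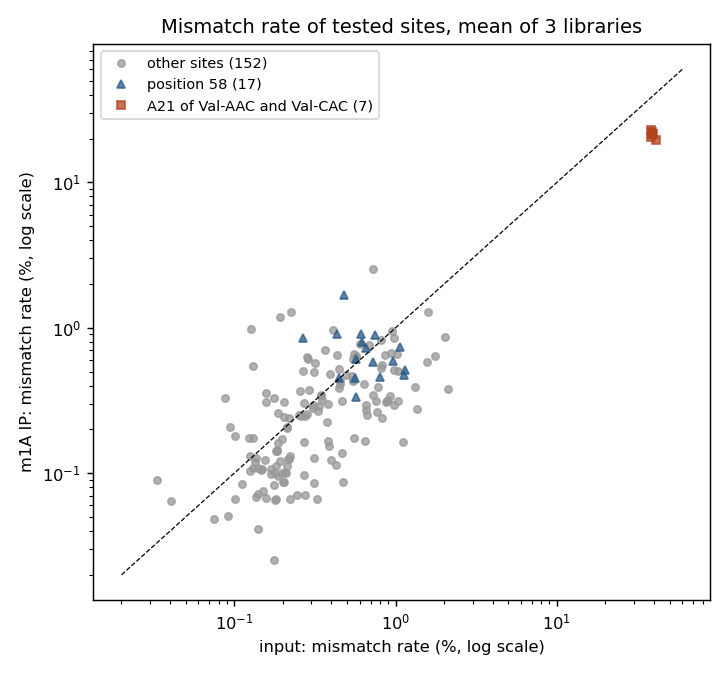
Mean mismatch rate of 3 libraries in the IP against input (percent, both axes log) for the 176 tested sites; the dashed line marks equal values, triangles are 17 position-58 sites and squares are 7 A21 sites of Val-AAC and Val-CAC. The squares stand alone near 39.2% in input and 21.4% in the IP, and the triangles scatter about the line.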

How the data were processed

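The authors deposited, per the file headers, 2 raw counts per listed adenosine and library, of covering reads and of mismatched reads. They also deposited the mismatch rate as a fraction, the quotient of both counts. The submitters' processing notes name hg38, SAMtools 1.3.1, Bowtie2 2.2.4 and cutadapt 1.9.3. Their settings and the way sites came to be listed are not stated in the labels. Coordinates are printed 1-based, and 172 of 180 genes matched a RefSeq tRNA gene by position. A further set of emptied lines of the table is not analysed here.

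Groups and numbers come from the labels. Counts were summed per anticodon and per gene and tested with edgeR 4.0.16 (quasi-likelihood, R 4.3.3), with the listed reads as library size, the replicate number as a block and at least 20 counts in 3 libraries, which 43 of 45 anticodons and 133 of 180 genes had. Log2 ratios of coverage (0.5 added, at least 20 reads below the line in every library) were tested with limma 3.58.1. Mismatched over covering counts were tested per site with a quasi-binomial model, at sites with mismatches in both groups and in each of the 3 numbers. That last condition was added because the model called unchanged sites in simulated data without it. The p-values of these tests were adjusted by Benjamini-Hochberg with a threshold of 0.05, two-sided. Shares per library were compared by exact permutation tests. Their p-values were adjusted over the segments, the site classes and the mismatch sets, and are unadjusted elsewhere. Reads of near-identical tRNA genes may be shared among copies, so values of single genes are uncertain.

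The block pairs IP and input by the number in their labels. Same-numbered libraries did not deviate together (correlations of -0.19, -0.05 and -0.34 over 43 anticodons), so counts without the block stand beside the main ones. No pair of replicates agreed within counting noise: chi-square over degrees of freedom was 1.73 to 3.99 in input and 425 to 568 in the IP. Named were the anticodons past the threshold, up to 8 genes per direction by largest log2 change, up to 8 per coverage step, up to 6 sites per direction by smallest p, sites of at least 5%, and the 5 largest anticodons of each group; other genes were named after their values were seen. The members and lists were chosen with earlier results of these data known. Alternatives were TMM scaling, DESeq2 1.42.0, other filters and pseudocounts, single parts of the tRNA, genes below the ceiling and leaving out each pair.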

Additional observations from a re-analysis of the deposited data

How the results depend on the processing

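With no replicate block, the anticodon count was 14 in place of 9, and the counts of genes (33), of passage of position 58 (27), of the 5′ part over position 58 (8) and of mismatch sites (0) stayed within 1.5 times. DESeq2 called 18 anticodons and 49 genes, with 38.9% of the anticodons higher against 44.4% in edgeR. TMM scaling shifted the log2 change of anticodons by a median of 0.23 and called 13. With no replicate block, the median log2 change over anticodons was 0.56 in place of -0.47, and over genes 0.30 in place of -0.80. The 5′ part alone, chosen after seeing the data, gave 3 anticodons and 12 genes, and sites 3′ of position 58 gave 20 genes. Without genes near the ceiling, 13 genes passed for reads, 13 for passage of position 58 and 5 for the 5′ part. With anticodons summed, 13 passed for passage of position 58, and a minimum of 50 reads left 3 for the 5′ part. The same minimum gave 1 mismatch site, A21 of Val-AAC-1-1 (adjusted p = 0.0486). Leaving out each pair gave 0 to 10 anticodons, 0 to 9 genes, 0 to 19 for passage of position 58, 4 to 8 for the 5′ part and 0 to 0 mismatch sites. With 2 pairs left, fewer libraries enter each fit. The change of Gly-GCC reversed to -1.34 with sites 3′ of position 58 and to -0.996 without genes near the ceiling, where Gly-GCC-4-1 alone is left, and that of Glu-TTC to 2.54 with sites 3′ of position 58. The difference in the class of position 14 reversed to 0.186 percentage points as a median over sites. The difference at other positions reversed to 0.0275 as a median over sites and to 0.00985 without A21 of valine, which was added after seeing the data. The causes of these shifts were not tested beyond the sites left out. Over the named anticodons, genes and sites, 362 alternatives kept side and direction, 97 kept only the direction, 1 newly passed and 3 reversed. Depth limits the mismatch test: at 20 reads a rate under 1% gives on average less than 1 mismatched read.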

Other observations

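The same anticodons were read in the other IP libraries of the series, which are given as values without a test. After AlkB treatment of the IP, vector cells had Thr-CGT at 0.283%, 0.326% and 0.199% of listed reads, again above the vector input (0.00812%, 0.0147% and 0.00823%). In knockdown cells, the IP without AlkB had Thr-CGT at 0.307%, 0.485% and 0.308% and the input at 0.0101%, 0.01002% and 0.0115%. Leu-CAA stood at 10.3%, 6.10% and 11.4% in that IP and at 1.33%, 1.24% and 1.39% in the knockdown input. In the AlkB-treated vector IP it stood at 1.61%, 2.77% and 4.28%, which overlaps the vector input.

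Met-CAT stayed rare in the knockdown IP without AlkB, with 2, 11 and 7 reads against 1242, 1310 and 1059 in the knockdown input. Lys-TTT differed between the knockdown libraries, with 19562, 626 and 52 reads in the IP without AlkB and 4869, 5522 and 3795 in input. As shares of listed reads, it made up 2.197%, 0.299% and 0.0078% of that IP and 1.896%, 1.977% and 1.684% of that input. Only library 1 of the knockdown IP thus lay above the input, while libraries 2 and 3 lay below it. In the AlkB-treated vector IP, Lys-TTT had 19, 154 and 614 reads.

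The anticodons that missed the filter were Leu-TAA, with 1, 3 and 0 reads in the IP and 24, 6 and 10 in input, and SeC-TCA, the selenocysteine tRNA, with 977, 1 and 0 in the IP and 1, 2 and 1 in input.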
